A study of Mus musculus with 8 samples.

Results

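Immediate early genes and the stress-inducible Hsp70 gene were followed in molar tooth epithelium of mouse embryos that lacked Foxi3 in the epithelium. The group was defined by 10 Ensembl mouse gene identifiers supplied with their symbols: Fos (ENSMUSG00000021250), Fosb (ENSMUSG00000003545), Jun (ENSMUSG00000052684), Junb (ENSMUSG00000052837), Egr1 (ENSMUSG00000038418), Atf3 (ENSMUSG00000026628), Dusp1 (ENSMUSG00000024190), Ier2 (ENSMUSG00000053560), Hspa1a (ENSMUSG00000091971) and Hspa1b (ENSMUSG00000090877). Of these, 9 had a row in the deposited table of 26165 genes, namely 8 immediate early genes and Hspa1a. The Hspa1b identifier had no row and was left out. No table used here pairs the identifiers with symbols, so the names could not be checked against an annotation.

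The tested embryos were Foxi3 cKO, in which a keratin 14 promoter drives the Cre recombinase (K14-cre43) in epithelium. Their genotype label reads K14-cre43;Foxi3-floxed, and the design text adds a null allele opposite the floxed one. The controls are titled wild-type and carry the genotype label Foxi3+/floxed, with no Cre and no null allele named. Cre, null allele and epithelial deletion therefore cannot be told apart. Both genotypes were taken at E13.5, the mandibular molar epithelium was separated with dispase, and each of the 4 cKO and 4 wild-type samples was an RNA pool from 5 embryos of 1 genotype. Values are log2 expression after RMA (robust multi-array averaging), so a difference of 1 is a doubling. RMA is meant to make the arrays comparable and narrows fold changes. The median of wild-type replicate 2 still deviated, as given below. Foxi3 itself and markers of epithelium, mesenchyme and blood were not analysed here, because their identifiers could not be named, so the loss of Foxi3 and the purity of the epithelium went unchecked. In pooled tissue, fewer cells of a type and less RNA per cell cannot be told apart.

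Immediate early genes are transcribed within minutes of a stimulus such as a growth factor, wounding or enzymatic dissociation, from factors already present in the cell, and their messages decay quickly. Fos, Fosb, Jun and Junb encode subunits of the AP-1 transcription factor, while Egr1 and Atf3 encode other inducible transcription factors. Dusp1 encodes a phosphatase that switches off MAP kinases, and Hspa1a encodes an Hsp70 chaperone induced by heat and protein damage. In dissected tissue their levels are often read as a sign of handling. The labels give no dissection time for any pool, and the part of handling in the differences below was not tested.

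Promoter windows (250 bases before to 50 after the gene start) were used for 8 of the 10 genes, all but Egr1 and Ier2, from RefSeq on GRCm38.p6. No window was available for Ier2, and that of Egr1 was left out of the search. Those of Fosb and Atf3 are shown because both genes rose in the cKO, those of Fos and Dusp1 because Dusp1 had the highest Pearson's r with Fos across the arrays, and that of Hspa1a as the heat shock gene. They read 5′ to 3′ along the gene, at chr7:19309996-19310295 (minus strand) for Fosb, chr1:191183284-191183583 (minus) for Atf3, chr12:85473640-85473939 (plus) for Fos, chr17:26508423-26508722 (minus) for Dusp1 and chr17:34972107-34972406 (minus) for Hspa1a. Capitals mark every match, on either strand, to TGACG (the half-site of the cAMP response element) and to TGACGTCA (the whole element). They also mark TGACTCA (the AP-1 site), TTCNNGAA and GAANNTTC (paired heat shock units), the CArG box bound by serum response factor, and TATAAA.
Fosb: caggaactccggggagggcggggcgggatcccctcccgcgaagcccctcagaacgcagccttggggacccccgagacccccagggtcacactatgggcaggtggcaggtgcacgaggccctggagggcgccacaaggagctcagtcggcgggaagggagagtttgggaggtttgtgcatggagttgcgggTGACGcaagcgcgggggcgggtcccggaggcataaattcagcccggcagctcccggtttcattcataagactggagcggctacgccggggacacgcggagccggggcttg
Atf3: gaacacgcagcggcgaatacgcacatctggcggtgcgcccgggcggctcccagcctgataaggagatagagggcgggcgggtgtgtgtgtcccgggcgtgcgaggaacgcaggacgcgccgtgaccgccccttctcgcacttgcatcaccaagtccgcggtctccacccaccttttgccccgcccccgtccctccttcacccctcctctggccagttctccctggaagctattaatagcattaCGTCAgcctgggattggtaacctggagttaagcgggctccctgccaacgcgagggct
Fos: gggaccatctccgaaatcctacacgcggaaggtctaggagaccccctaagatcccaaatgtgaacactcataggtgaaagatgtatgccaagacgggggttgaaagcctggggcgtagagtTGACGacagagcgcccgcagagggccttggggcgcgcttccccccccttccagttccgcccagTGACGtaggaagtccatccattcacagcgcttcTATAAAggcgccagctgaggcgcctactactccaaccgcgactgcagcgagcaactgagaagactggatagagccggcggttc
Dusp1: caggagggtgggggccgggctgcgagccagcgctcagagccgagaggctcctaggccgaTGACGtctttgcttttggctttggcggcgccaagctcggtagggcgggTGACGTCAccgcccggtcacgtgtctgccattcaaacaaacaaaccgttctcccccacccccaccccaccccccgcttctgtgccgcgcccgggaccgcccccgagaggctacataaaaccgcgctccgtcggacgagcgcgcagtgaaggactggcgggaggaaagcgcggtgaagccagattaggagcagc
Hspa1a: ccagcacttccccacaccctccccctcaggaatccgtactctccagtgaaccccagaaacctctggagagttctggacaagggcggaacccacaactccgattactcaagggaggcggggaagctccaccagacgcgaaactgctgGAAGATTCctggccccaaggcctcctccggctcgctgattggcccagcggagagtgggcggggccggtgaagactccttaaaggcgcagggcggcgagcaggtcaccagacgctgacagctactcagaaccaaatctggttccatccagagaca

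The half-site TGACG lay in 5 of the 8 windows (Fos, Fosb, Junb, Atf3 and Dusp1), against 20.8% of all 32851 promoter windows. It began 60 bases before the gene start in Fosb and 7 before it in Atf3. The whole element TGACGTCA, which contains the half-site, was in Dusp1 alone of the 8 and in 1.79% of all windows. The heat shock pair GAANNTTC was in Jun, Hspa1a and Hspa1b and in 7.86% of all windows. TATAAA was in Fos and Junb and in 13.6% of all windows. No match to TGACTCA, TTCNNGAA or the CArG box was found in the 8 windows, against 5.2%, 8.52% and 1.63% of all windows. The shares over all windows had no such omission, so the counts among the 8 say nothing of Egr1 or Ier2. These matches describe letters only and were not tested for binding. The Hspa1a and Hspa1b windows differed at 4 of 300 bases. The 2 genes are near-identical copies also in their coding sequence, so how far the Hspa1a row also reads Hspa1b is uncertain.

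Fosb and Atf3 rose in the Foxi3 cKO epithelium, and none of the 9 genes fell. Called genes are those with a limma p under 0.05 after Benjamini-Hochberg adjustment over all 26165 rows. By that rule 2 of the 9 genes were higher and 0 lower, against 0.688% of all rows called higher and 1.31% called in either direction. At an unadjusted limma p under 0.05, 4 of the 9 were higher (Atf3, Fosb, Jun and Egr1) and 0 lower. Over all 26165 rows, 2531 had such a p in either direction. The difference was positive in 8 of the 9 genes, with a median of 0.29 on the log2 scale, against −0.018 over all rows. Leaving out 1 array gave 0 to 2 of the 9 genes called, 0 without cKO replicate 1 and 1 without cKO replicate 3, and 119 to 303 calls over all rows against 342. The members were chosen with results of these arrays known, so these counts describe the list and do not test it.

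Atf3, a transcription factor of the ATF/CREB family that many stresses induce, had log2 values of 9.77, 9.41, 9.76 and 9.40 in cKO replicates 1 to 4, against 8.84, 8.56, 8.79 and 8.90 in wild-type replicates 1 to 4. All 4 cKO values lay above every wild-type value. Its means were 9.59 ± 0.21 in the cKO and 8.77 ± 0.15 in wild type (SD, n = 4 each). The log2 difference was 0.81 (SE 0.11, limma adjusted p = 0.016), which is 1.76-fold, with a 95% interval of 1.47-fold to 2.10-fold. It was the largest difference of the 9 genes.

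Fosb, an AP-1 subunit of the Fos family, had log2 values of 8.92, 8.80, 9.01 and 8.71 in cKO replicates 1 to 4, against 8.20, 7.87, 8.25 and 8.17 in wild-type replicates 1 to 4. The lowest cKO pool was again above the highest wild-type pool. Its means were 8.86 ± 0.13 in the cKO and 8.12 ± 0.17 in wild type (SD, n = 4 each). The log2 difference was 0.74 (SE 0.10, limma adjusted p = 0.0137), a 1.66-fold rise with a 95% interval of 1.42-fold to 1.95-fold. Both calls were close to the threshold. Without cKO replicate 1 the limma adjusted p was 0.055 for Fosb and 0.054 for Atf3, and without cKO replicate 3 it was 0.053 for Atf3. Over 16 alternative settings the limma adjusted p ran from 0.00494 to 0.059 for Fosb and from 0.00601 to 0.076 for Atf3, while the log2 differences stayed between 0.63 and 0.78 for Fosb and between 0.68 and 0.87 for Atf3.

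**Figure D1:**
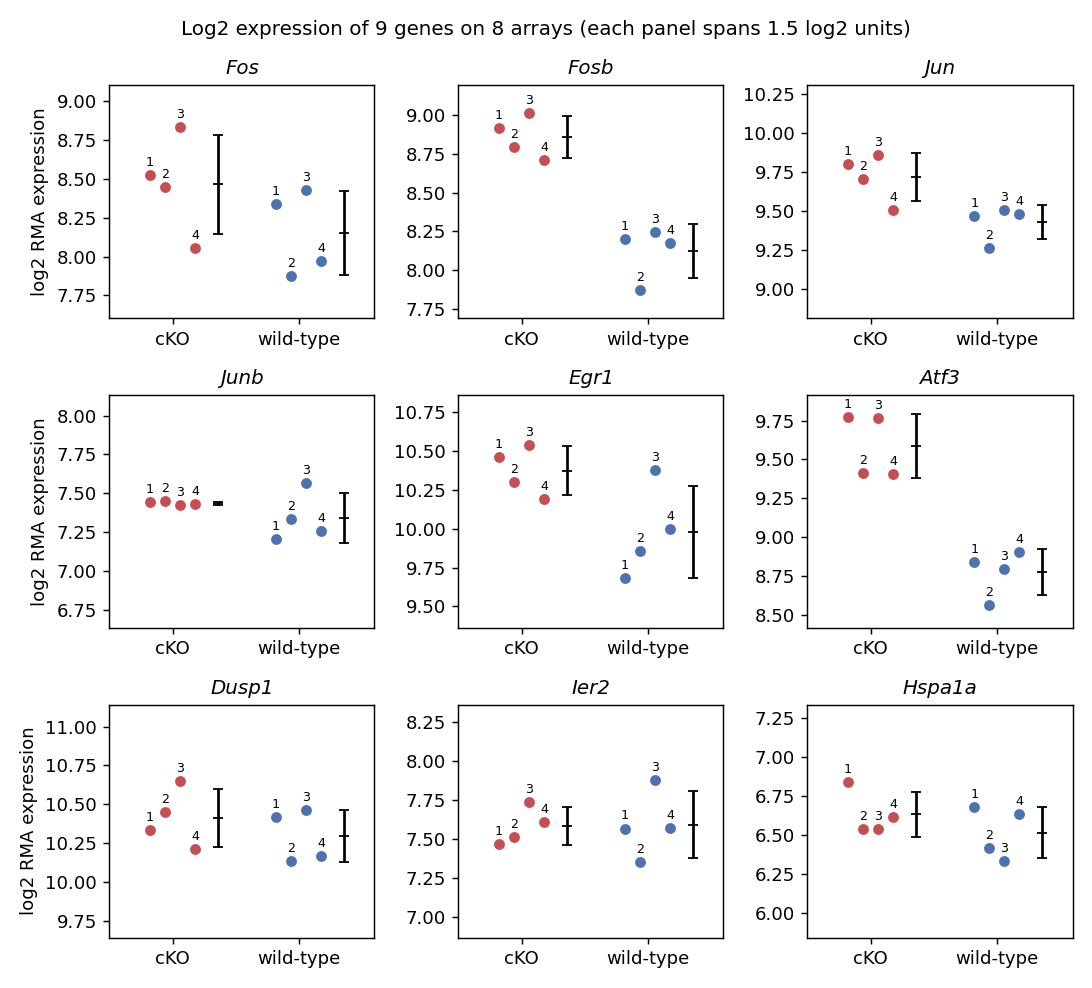
Log2 RMA expression (vertical axes) of each of the 9 genes on the 4 cKO arrays (red, left) and the 4 wild-type arrays (blue, right), where numbers are replicate labels and black bars give the mean and SD (n = 4). Each panel spans the same range, and the genotypes do not overlap for Fosb, Atf3 and Jun.

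Jun, a partner of Fos in AP-1, also separated the genotypes, but narrowly. It had log2 values of 9.80, 9.70, 9.86 and 9.51 in cKO replicates 1 to 4, against 9.47, 9.26, 9.51 and 9.48 in wild-type replicates 1 to 4. The lowest cKO value, 9.509, was barely above the highest wild-type value, 9.508. The log2 difference was 0.29 (SE 0.09), or 1.22-fold, and did not pass the test over all rows (limma adjusted p = 0.26). Taken alone, it gave p = 0.0286 in an exact two-sided permutation test, the smallest p that 4 against 4 arrays allow. Any gene without overlap gives that p, so it only restates the separation. Without overlap of the genotypes, all 4 cKO values were above all 4 wild-type values in 3 of the 9 genes, against 4.14% of all rows.

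Fos had log2 values of 8.52, 8.45, 8.83 and 8.05 in cKO replicates 1 to 4, against 8.34, 7.88, 8.43 and 7.97 in wild-type replicates 1 to 4. The genotypes overlapped, since cKO replicate 4 lay below 2 wild-type pools. The cKO minus wild-type difference was 0.31 on the log2 scale (SE 0.18, 95% interval −0.10 to 0.73, limma adjusted p = 0.67). The pools of 1 genotype spread widely, with an SD of 0.32 in the cKO and 0.27 in wild type (n = 4 each).

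Egr1, a zinc finger transcription factor induced by growth factors through MAP kinases, had log2 values of 10.46, 10.30, 10.54 and 10.19 in cKO replicates 1 to 4, against 9.69, 9.86, 10.38 and 10.00 in wild-type replicates 1 to 4. Wild-type replicate 3 reached the range of the cKO pools and the other wild-type pools did not. On the log2 scale the difference was 0.39 (SE 0.15, 95% interval 0.06 to 0.73, limma adjusted p = 0.40).

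Dusp1, which is induced by MAP kinase signalling and stress, had log2 values of 10.33, 10.45, 10.65 and 10.21 in cKO replicates 1 to 4, against 10.42, 10.14, 10.46 and 10.17 in wild-type replicates 1 to 4. The ranges overlapped, and only cKO replicate 3 was above every wild-type pool. This gave a log2 difference of 0.11 (SE 0.11, 95% interval −0.14 to 0.37, limma adjusted p = 0.81).

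Junb, an AP-1 subunit that can oppose Jun, was nearly level across the cKO pools at 7.44, 7.45, 7.42 and 7.43 in replicates 1 to 4, against 7.20, 7.34, 7.56 and 7.25 in wild-type replicates 1 to 4. The cKO values all lay inside the wild-type range, and the SD was 0.010 in the cKO and 0.16 in wild type (n = 4 each). The mean differed by 0.10 on the log2 scale (SE 0.08, 95% interval −0.08 to 0.27, limma adjusted p = 0.77).

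Ier2, an immediate early gene that encodes a nuclear protein, had log2 values of 7.47, 7.51, 7.74 and 7.61 in cKO replicates 1 to 4, against 7.57, 7.35, 7.88 and 7.57 in wild-type replicates 1 to 4. The highest and the lowest pool were both wild-type. The log2 difference was −0.010 (SE 0.11, 95% interval −0.26 to 0.24, limma adjusted p = 0.98), and its sign turned in 4 of the 16 alternatives.

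Hspa1a, the heat shock gene, had log2 values of 6.84, 6.54, 6.54 and 6.61 in cKO replicates 1 to 4, against 6.68, 6.41, 6.33 and 6.63 in wild-type replicates 1 to 4. Only cKO replicate 1 was above every wild-type pool. The log2 difference was 0.12 (SE 0.10, 95% interval −0.11 to 0.35, limma adjusted p = 0.79). The upper end of that interval is a 1.27-fold rise in the cKO. Leaving out 1 array moved the small differences of these uncalled genes widely, between 0.034 and 0.18 for Dusp1, 0.051 and 0.17 for Junb, and 0.047 and 0.17 for Hspa1a.

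**Figure D2:**
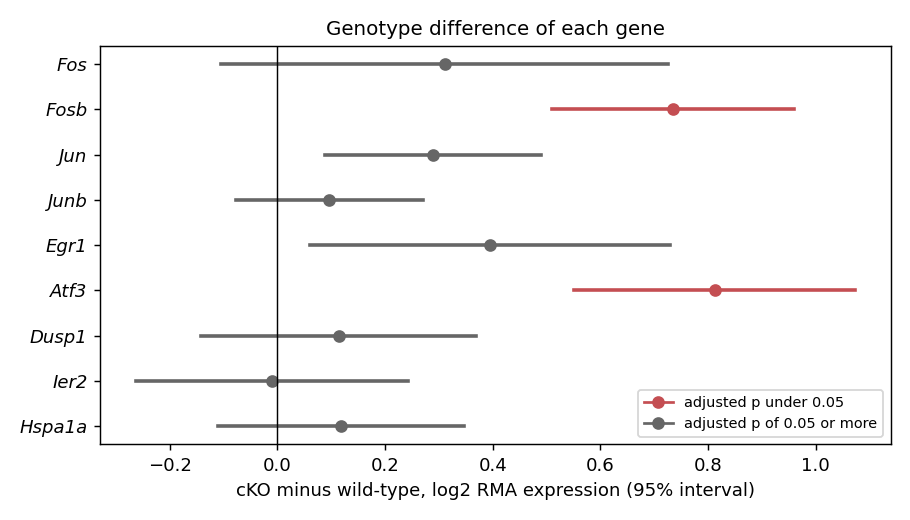
Log2 difference of cKO minus wild-type (horizontal axis) with its 95% interval from limma for each gene (vertical axis), red where the adjusted p was under 0.05. Atf3 (0.81) and Fosb (0.74) stand to the right of the other 7 genes, which lie between −0.010 and 0.39.

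How unequally the genes differed by genotype was described with differences between 2 genes on the same array, which any shift common to both leaves unchanged. Fosb and Atf3 were picked out by the same contrast, so these values carry no test. The log2 value of Atf3 minus that of Dusp1 averaged −0.82 ± 0.20 in the cKO and −1.52 ± 0.18 in wild type (SD, n = 4 each), a genotype difference of 0.70 without overlap. Fosb minus Dusp1 averaged −1.55 ± 0.11 in the cKO and −2.17 ± 0.12 in wild type (SD, n = 4 each), a genotype difference of 0.62 without overlap. For Fosb minus Jun the averages were −0.86 ± 0.05 in the cKO and −1.31 ± 0.06 in wild type (SD, n = 4 each), again without overlap. Against Fos, the genotypes overlapped for both Fosb and Atf3, with genotype differences of 0.42 and 0.50, and against Egr1 they overlapped with 0.34 and 0.42. Between Fosb and Atf3 the genotype difference was −0.08, with overlap.

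Among pools of 1 genotype these genes varied more than most genes of like signal. The pooled within-genotype SD of Fos was 0.30, and 0.4% of the 500 rows nearest to it in mean value, Fos included, had an SD at least as large. For Egr1 the SD was 0.24 and that share 2.4%. The share was at most 10% for 7 of the 9 genes, the exceptions being Junb at 19.4% and Hspa1a at 14.4%. Over all rows of the table the share was 6.07% for Fos, 11.6% for Egr1 and between 21.8% and 47.2% for the other 7 genes. These shares are a description, with no test.

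The pools that were high were mostly the same ones from gene to gene. Of the 8 immediate early genes, 6 were highest among the cKO pools in cKO replicate 3 and 6 were lowest in cKO replicate 4. Among the wild-type pools, 7 of the 8 were highest in replicate 3 and 6 were lowest in replicate 2. Relative to the genotype mean, the 8 genes averaged 0.17 in cKO replicate 3 and −0.16 in cKO replicate 4, and they averaged 0.20 in wild-type replicate 3 and −0.18 in wild-type replicate 2. Hspa1a ran differently: it was highest in replicate 1 of both genotypes, and in wild-type replicate 3 it was at its lowest.

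**Figure D3:**
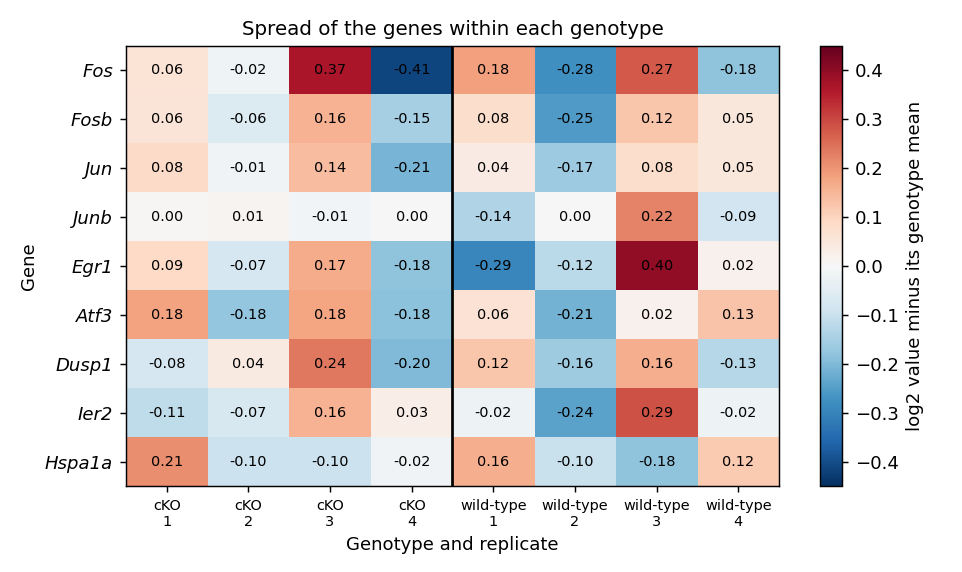
Log2 value minus the mean of its own genotype for each gene (rows) on each array (columns, cKO left and wild-type right), red above and blue below that mean. Fos reaches 0.37 in cKO replicate 3 and −0.41 in cKO replicate 4, and wild-type replicate 3 is above its genotype mean in all genes but Hspa1a.

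Wild-type replicate 2 also stands apart over the whole table, with a median log2 value of 5.44 against 5.25 to 5.30 on the other 7 arrays. Set against wild-type replicates 1, 3 and 4, averaged, all 8 immediate early genes were lower there, by a median log2 value of −0.25. The 8722 rows of the brightest tertile, to which all 8 belong, had a median of −0.062. After cyclic loess, which evens out dependence on brightness, these medians were −0.17 (7 of 8 genes lower) and 0.0015. Without this array the log2 difference was 0.65 for Fosb (limma adjusted p = 0.0169) and 0.74 for Atf3 (limma adjusted p = 0.032), so both rises were called without it.

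Whether the genes varied together with Fos over the 8 arrays was asked on the deposited values and again with the genotype means removed, with p-values adjusted over the 8 relations in each. Dusp1 had the highest Pearson's r of the members, 0.94 as deposited (exact permutation p = 0.00196, adjusted p = 0.0157), with Spearman's rho of 0.83 (exact permutation p = 0.0154, adjusted p = 0.031). Without the 2 arrays farthest from the median of Fos, r was 0.85. In the deposited values these outermost arrays were wild-type replicate 2 and cKO replicate 3. With the genotype means removed, r was 0.95 (exact permutation within genotypes, p = 0.0191, adjusted p = 0.051) and rho 0.98 (exact permutation p = 0.0139, adjusted p = 0.056), so neither passed after adjustment.

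For Jun, r was 0.87 as deposited (exact permutation p = 0.00417, adjusted p = 0.0167) and rho 0.88 (exact permutation p = 0.00724, adjusted p = 0.029), and r was 0.66 without the 2 outermost arrays. With the genotype means removed, r was also 0.87 (exact permutation p = 0.00521, adjusted p = 0.021), while rho was 0.83 and missed the threshold (exact permutation p = 0.0208, adjusted p = 0.056). For Fosb, r was 0.73 as deposited (exact permutation p = 0.047, adjusted p = 0.11) and 0.39 without the 2 outermost arrays, while rho was 0.93 (exact permutation p = 0.00223, adjusted p = 0.0179). Because Fosb separates the genotypes, its deposited values form 2 clusters. With the genotype means removed its r was 0.85 (exact permutation p = 0.00174, the smallest it can give, adjusted p = 0.0139) and its rho 0.95 (exact permutation p = 0.00347, adjusted p = 0.028). The 2 outermost arrays in that setting were cKO replicates 3 and 4, and r was 0.78 without them.

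For Egr1, r was 0.69 as deposited (exact permutation p = 0.059, adjusted p = 0.11) and rho 0.83 (exact permutation p = 0.0154, adjusted p = 0.031), and r was 0.44 without the 2 outermost arrays. With the genotype means removed neither passed (r = 0.54, adjusted p = 0.26, and rho = 0.60, adjusted p = 0.28, both by exact permutation). For Atf3, r was 0.68 as deposited (exact permutation p = 0.071, adjusted p = 0.11) and rho 0.76 (exact permutation p = 0.037, adjusted p = 0.059), and with the genotype means removed they were 0.65 (exact permutation p = 0.16, adjusted p = 0.26) and 0.62 (exact permutation p = 0.17, adjusted p = 0.28). Junb, Ier2 and Hspa1a had deposited r of 0.42, 0.49 and 0.13, none of which passed the test (exact permutation p = 0.30, 0.22 and 0.77, adjusted p = 0.35, 0.29 and 0.77), with rho of 0.48, 0.26 and 0.10 (exact permutation p = 0.24, 0.54 and 0.84, adjusted p = 0.32, 0.61 and 0.84). In the deposited values, r without the 2 outermost arrays was 0.31 for Atf3, 0.45 for Junb, −0.0089 for Ier2 and −0.00080 for Hspa1a. No value within 1 genotype was computed, since each holds 4 arrays.

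Over all rows of the table, the profiles most like that of Fos across the 8 arrays were those of ENSMUSG00000021891 and ENSMUSG00000046675, both with Pearson's r of 0.96. Dusp1 had rank 7 and Jun rank 57 in that order among the other 26164 rows, Fosb rank 466 and Hspa1a rank 8778.

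**Figure D4:**
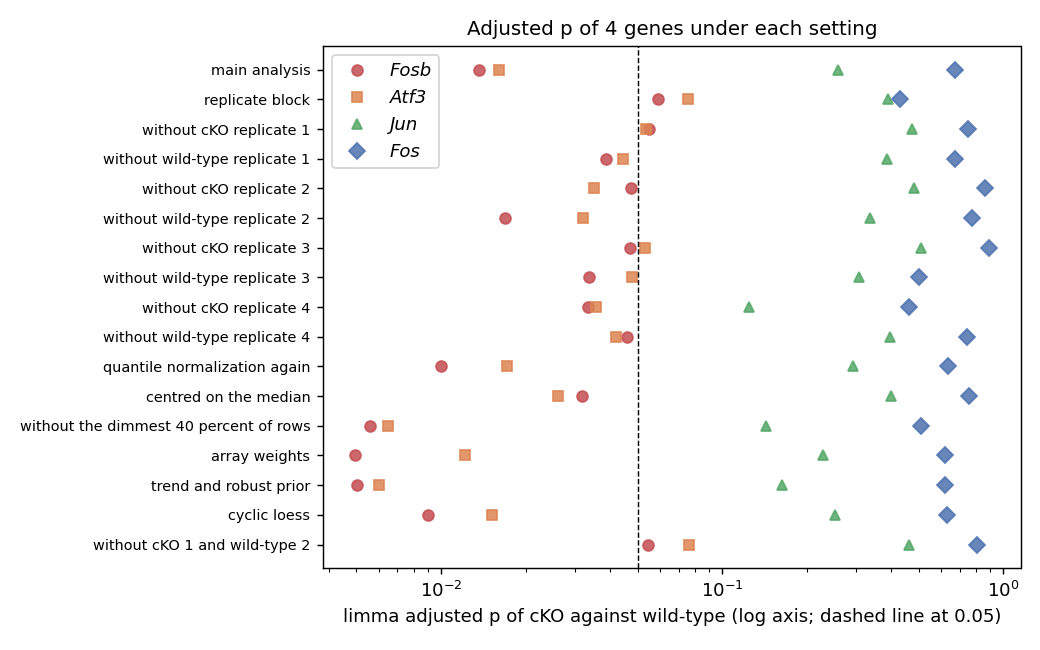
Limma adjusted p of cKO against wild-type (horizontal log axis, threshold 0.05 dashed) for Fosb, Atf3, Jun and Fos under the main analysis and the 16 alternative settings (vertical axis). Fosb lies left of the threshold in 13 of the 16 alternatives and Atf3 in 12, and Jun and Fos lie right of it in all.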

How the data were processed

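One deposited table held the authors' log2 values of all 8 arrays. Per the submitters' processing notes these came from RMA, and per the labels' protocols the RNA was biotinylated with an Affymetrix kit. The sources used here do not give the array model, the RMA version or the probe annotation. The table had no detection calls, so no gene was called absent, and the number of pools limits the precision. Columns were matched by accession and groups came from the titles.

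The deposited values were tested without further normalization or filter in R 4.3.3 by a two-sided moderated test of genotype alone (lmFit, then eBayes, of limma 3.58.1), with Benjamini-Hochberg adjustment over all 26165 rows. The step was checked on simulated data. No label states separate litters, so p-values cover only pool-to-pool spread. Same-numbered pools were not treated as pairs, because over all rows their deviations from the group means correlated at −0.046, −0.090, −0.037 and 0.020 for numbers 1 to 4. Averaged over the 8 immediate early genes alone, the deviations had the same sign in both genotypes at each number. The correlations over all rows therefore do not settle pairing for these genes. At number 3 they were 0.17 in the cKO and 0.20 in wild type.

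All 9 genes with a row are named, with the 2 profiles most like that of Fos. Members, lists and tests were chosen with earlier results of these data known. Further lists of immediate early, heat shock and stress genes and of cell type markers were not analysed here, because none of the identifiers could be matched: the Ensembl column of the gene table was empty.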

Additional observations from a re-analysis of the deposited data

Results flagged for a closer look

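A check for a single pool lying far from its 3 partners was made for each of the 9 genes in each genotype. Chance alone would mark about 1 in 20 of these 18 checks. In 1 of them a pool was marked: Jun was at a log2 value of 9.26 in wild-type replicate 2, while its values in wild-type replicates 1, 3 and 4 lay between 9.47 and 9.51. That array is also the one with the deviating median over all genes. The mark was barely reached: the Dixon ratio, the gap to the nearest pool over the range, was 0.8296 against a critical value of 0.829.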

How the results depend on the processing

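Fosb and Atf3 kept a positive difference in all 16 alternative limma settings, as did Fos, Jun, Junb, Egr1, Dusp1 and Hspa1a, and no gene other than Fosb and Atf3 was called in any. The replicate block, the removal of dim rows and a changed eBayes prior leave every difference as it was, so no sign could turn there. For Fosb, Atf3 and Jun, whose genotypes do not overlap, leaving out or weighting arrays could not turn the sign either. The 2 calls became 0 with the replicate number as a block (replicate block: limma adjusted p = 0.059 for Fosb and 0.075 for Atf3, 18 calls over all rows against 342), and 0 without both arrays of lowest weight, cKO replicate 1 and wild-type replicate 2 (0.055 and 0.076, 106 calls over all rows), a setting chosen after seeing the data. The numbers are not stated to pair the pools. With the replicate block the unadjusted limma p rose for Fosb, Atf3, Jun and Junb and fell for Egr1, Dusp1, Ier2, Hspa1a and Fos. For Fos it went from 0.12 to 0.018 (limma adjusted p = 0.43 with the block). Leaving out 1 array gave 0 to 2 calls among the 9 genes and 119 to 303 over all rows, with fewer samples in each fit. Over all rows, centring each array on its median gave 196 calls (131 higher and 65 lower, against 180 and 162) and array weights 575. Without the dimmest 40% of rows 503 were called. The causes of these changes were not tested. The difference of Ier2 turned positive at 0.025 with centring, and leaving out 1 array moved it between −0.089 and 0.086. Jun passed the exact permutation test of the gene alone (p = 0.0286), which restates its lack of overlap and carries no adjustment over genes. With genotype means removed, the correlation of Dusp1 with Fos missed the adjusted threshold (r = 0.95, exact permutation p = 0.0191), that of Fosb passed it (r = 0.85), and that of Hspa1a changed sign to −0.098. For the further gene lists no alternative was run. Without detection calls or signal over background, the limit set by dim signal could not be assessed.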
